A study of Mus musculus with 6 samples.

Results

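The 10 genes described here serve macrophages in taking up, using, storing and releasing iron and heme, and they were followed in RAW264.7 cells, a mouse macrophage line, under inflammatory stimulation with and without ultrasound. They were chosen by name from the pathway, with earlier results of these data known: Slc48a1, Hmox1 and Blvrb for heme, Fth1, Ftl1 and Ncoa4 for storage, Tfrc, Slc11a2 and Slc11a1 for iron uptake and vesicular transport, and Slc40a1 for export. All 10 were found among the 55335 mouse genes of the table, and 9 of them were among the 11270 genes tested. In the LPS plus ultrasound group, 3 libraries came from cells given 200 ng/ml lipopolysaccharide (LPS), a bacterial cell wall component, for 8 h, with 10 min of pulsed ultrasound within that time (50 mW/cm², 1 MHz, duty cycle 20%, pulses of 200 µs repeated at 1 kHz). In the LPS group, 3 libraries came from cells given the same LPS alone, so every cell studied was LPS-stimulated, and cells without LPS were not analysed here. The line is labelled as wild type, and whether each library had a culture of its own is not in the labels. The p-values therefore rest on variation among the libraries that could be purely technical.

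Macrophages recycle the iron of old red blood cells. Heme freed in the phagolysosome leaves it through the transporter SLC48A1 (HRG1), heme oxygenase 1 (HMOX1) opens the ring to give iron, carbon monoxide and biliverdin, and biliverdin reductases turn biliverdin into bilirubin. The iron is stored in ferritin, a shell of heavy (FTH1) and light (FTL1) chains that NCOA4 carries to the lysosome for breakdown, or leaves the cell through ferroportin (SLC40A1), whose gene inflammatory stimuli are known to repress in macrophages. Transferrin receptor 1 (TFRC) brings in transferrin-bound iron, which SLC11A2 (DMT1) moves out of endosomes, and SLC11A1 (NRAMP1) pumps metal ions out of phagosomes. RAW264.7 cells descend from a BALB/c mouse and carry the susceptible Slc11a1 allele of that strain, whose protein does not function, so a level of its RNA is not a level of activity.

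Several of these transcripts carry an iron-responsive element, a hairpin bound by the iron regulatory proteins when iron is scarce. In a 5′ UTR the bound protein blocks translation and in a 3′ UTR it protects the transcript from decay, so the RNA level can follow this control for Tfrc but not for ferritin. The hairpin was searched as a C, 5 bases, the 6-base loop CAGTGN and 5 bases that pair with the first 5 (G with T allowed), on the transcript strand, in the UTRs of the GENCODE M21 transcripts (GRCm38). It was present in 4 of the 10 genes, Fth1, Ftl1, Slc40a1 and Tfrc, and in 0.731% of the 21901 protein-coding genes searched. The sites are shown because they separate matches in a 5′ UTR from matches in a 3′ UTR. Those of the 5′ UTRs lie at chr19:9982732-9982761 on the plus strand (Fth1), chr7:45459778-45459807 on the minus strand (Ftl1) and chr1:45925464-45925493 on the minus strand (Slc40a1). The 4 of the Tfrc 3′ UTR lie on the plus strand at chr16:32631219-32631248, chr16:32631598-32631627, chr16:32631663-32631692 and chr16:32631710-32631739. Each is given 5′ to 3′ with the loop in capitals.
Fth1: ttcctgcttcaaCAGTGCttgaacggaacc
Ftl1: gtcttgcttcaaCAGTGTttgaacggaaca
Slc40a1: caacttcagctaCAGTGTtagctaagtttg
Tfrc site 1: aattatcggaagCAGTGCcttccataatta
Tfrc site 2: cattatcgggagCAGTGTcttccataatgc
Tfrc site 3: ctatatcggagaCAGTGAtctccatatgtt
Tfrc site 4: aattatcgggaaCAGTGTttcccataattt
The ferritin chains share 26 of the 30 bases shown. No match in Slc11a2 says only that this pattern is not in its annotated UTRs. It does not show that Slc11a2 lacks an iron-responsive element or escapes control by decay. Likewise, the 4 matches in Tfrc are not a count of all its iron-responsive elements.

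The 6 libraries summed to 278871 to 292200 FPKM (fragments per kilobase of transcript, scaled by the authors to the mapped fragments of a library, so that levels can be compared between genes), with 11128 to 11299 genes at 1 FPKM or more. Of 11 macrophage markers, 11 averaged 1 FPKM or more, and 0 of the 7 erythroid, 6 skeletal muscle, 5 fibroblast and 5 hepatocyte markers did. The erythroid markers, which would mark red cells as a source of heme gene RNA, summed to 0.273 to 0.614 FPKM with ultrasound and 0.412 to 0.583 FPKM with LPS alone. The extraction text speaks of rat muscle, but the muscle markers summed to 0.666 to 1.15 FPKM with ultrasound and 0.569 to 0.975 FPKM with LPS alone. LPS library 2 stood apart on principal component 1, and library 2 was also the highest of its own group for the same 4 genes in both groups, Blvrb, Fth1, Ftl1 and Slc40a1. How often this held over all tested genes was not counted. In bulk RNA, fewer expressing cells and less RNA per cell cannot be told apart. A log2 fold change is the mean log2(FPKM + 1) of the ultrasound libraries minus that of the LPS libraries, ± SE from limma, with p-values adjusted by Benjamini and Hochberg (BH) over all tested genes, and this scale understates changes of low genes.

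With ultrasound, Slc48a1, Slc11a1, Slc11a2, Ftl1 and Blvrb had slightly higher mean values, with log2 fold changes of 0.30, 0.23, 0.20, 0.19 and 0.19. Hmox1 and Tfrc lay at 0.099 and 0.064, and Fth1 and Ncoa4 at -0.0020 and -0.0035. None of the 9 tested genes passed the test. The largest ratio of means was 1.25, for Slc48a1. At an adjusted limma p below 0.05, 0 of the 9 tested genes were called, against 0.0177% of all tested genes. With unadjusted limma p-values and the same threshold, 2 of the 9 passed, against 15.3% of all tested genes. Both, Slc48a1 and Slc11a2, were higher, against 6.18% of all tested genes in that direction, and 0 were lower, against 9.16%. The groups did not overlap for the same 2 of the 9, against 23.2% of all tested genes, or 9.8% counting those higher with ultrasound. The fold change was above 0 for 7 of the 9, against 46.1% of all tested genes, with a median of 0.19 against -0.017. With the replicate number as a block, 0 of the 9 were called, against 0.115% of all tested genes. In that fit 5 of the 9 had an unadjusted p below 0.05, against 29.7% of all tested genes. These 5 were higher, against 12.6%, and 0 were lower, against 17.1%.

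**Figure D1:**
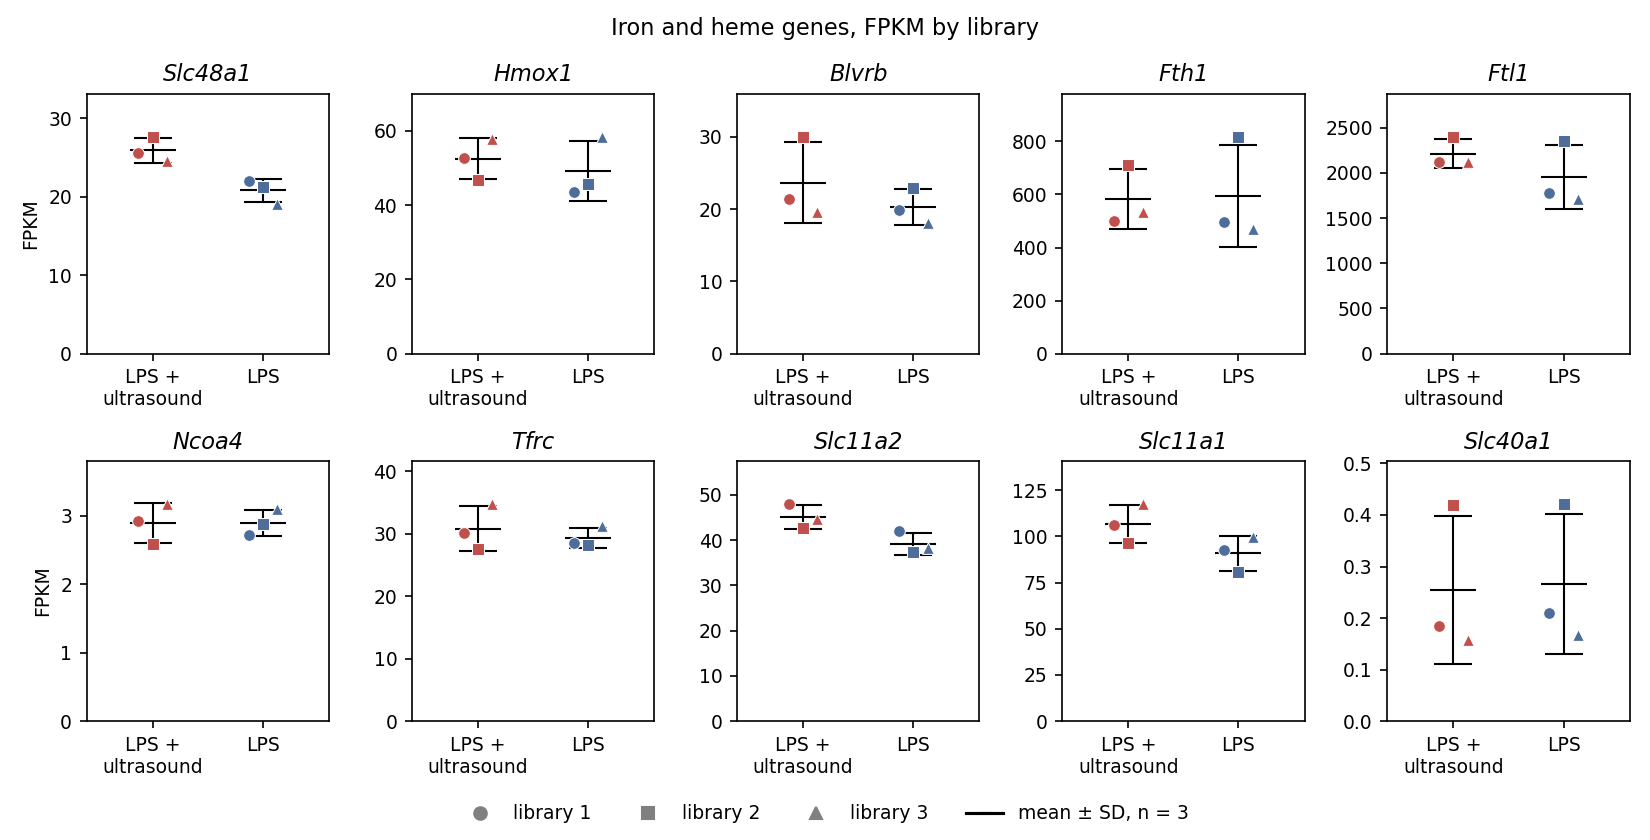
FPKM of the 10 iron and heme genes in each library (y axes, linear and starting at 0), with LPS plus ultrasound left of LPS, one symbol per replicate number, and the mean ± SD of 3 libraries as bars. The groups are apart for Slc48a1 and Slc11a2 and overlap for the other 8 genes.

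Their levels spanned almost the whole range of expression in these cells. By mean FPKM over the 6 libraries, Ftl1 was the 7th most abundant of the 11270 tested genes at 2081 FPKM and Fth1 the 46th at 588 FPKM. Slc11a1 followed at 98.8 FPKM, Hmox1 at 50.9, Slc11a2 at 42.1, Tfrc at 30.03, Slc48a1 at 23.3 and Blvrb at 21.99. Ncoa4 lay at 2.89 FPKM and Slc40a1 at 0.260 FPKM, under the 1 FPKM needed for testing. Of neighbours in this order, Slc48a1 and Blvrb had overlapping ranges over the libraries of a group, in both groups. With ultrasound Slc48a1 had 24.6 to 27.6 FPKM and Blvrb 19.5 to 30.001 FPKM, and with LPS alone Slc48a1 had 19.1 to 22.04 FPKM and Blvrb 18.1 to 23.0 FPKM. The ranges of Hmox1 and Slc11a2, and of Tfrc and Slc48a1, overlapped with ultrasound and not with LPS alone. No other neighbours had overlapping ranges in either group. Storage transcripts stood far above those of export in both groups.

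Among the heme genes, the transporter gene Slc48a1 (ENSMUSG00000081534) had 25.5, 27.6 and 24.6 FPKM in the LPS plus ultrasound libraries, against 22.04, 21.2 and 19.1 FPKM in the LPS libraries. The lowest ultrasound value exceeded the highest LPS value. The means were 25.9 ± 1.57 FPKM with ultrasound and 20.8 ± 1.505 FPKM with LPS alone (SD, n = 3 each), a log2 fold change of 0.30 ± 0.084 with a 95% interval of 0.11 to 0.50 (limma with BH adjustment, adjusted p = 0.22, and 0.068 with the replicate block). Of its 2751 exon bases, 29 overlap the opposite-strand gene Hdac7, which was listed at 0.0108 to 0.0200 FPKM with ultrasound and 0.0209 to 0.0485 FPKM with LPS alone.

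Hmox1 (ENSMUSG00000005413), the gene of the inducible enzyme that opens the heme ring, did not separate the groups. It had 52.8, 46.9 and 57.9 FPKM with ultrasound, against 43.5, 45.8 and 58.4 FPKM with LPS alone. The highest of the 6 values was LPS library 3 and the lowest LPS library 1, so the ultrasound libraries lay inside the LPS range. The log2 fold change was 0.099 ± 0.13, with a 95% interval of -0.21 to 0.40 (limma with BH adjustment, adjusted p = 0.73). It was 0.017 without LPS library 1 and 0.23 without LPS library 3.

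Blvrb (ENSMUSG00000040466), which encodes a flavin and biliverdin reductase, had 21.5, 30.001 and 19.5 FPKM with ultrasound, against 19.9, 23.0 and 18.1 FPKM with LPS alone. Each ultrasound library lay above the LPS library of the same number, while the groups overlapped. The log2 fold change of 0.19 ± 0.16 did not pass (limma with BH adjustment, adjusted p = 0.59), and without ultrasound library 2 it was 0.017. The constitutive heme oxygenase gene Hmox2 averaged 19.1 ± 2.66 FPKM with ultrasound and 16.6 ± 1.77 FPKM with LPS alone (SD, n = 3 each). Blvra, the gene of the main biliverdin reductase of adult tissue, averaged 19.5 ± 2.40 FPKM with ultrasound and 20.3 ± 3.995 FPKM with LPS alone. Neither passed (limma with BH adjustment, adjusted p = 0.48 and 0.90).

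Among the storage genes, the ferritin heavy chain gene Fth1 (ENSMUSG00000024661), whose product oxidizes iron for storage, had 500.2, 711 and 533 FPKM with ultrasound, against 497, 817 and 469 FPKM with LPS alone. Library 2 was the highest in each group, and the values of libraries 1 and 3 lay close together. The log2 fold change was -0.0020 ± 0.23, with a 95% interval of -0.54 to 0.54 (limma with BH adjustment, adjusted p = 0.998). The replicate block narrowed this interval to -0.22 to 0.21. The direction turned without LPS library 2, at 0.25, and without both libraries numbered 2, at 0.097.

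The light chain gene Ftl1 (ENSMUSG00000050708), whose product helps iron mineralize inside the shell, had 2117, 2398 and 2122 FPKM with ultrasound, against 1781, 2357 and 1711 FPKM with LPS alone. Libraries 1 and 3 of the ultrasound group exceeded their LPS counterparts, whereas the libraries numbered 2 nearly coincided, so the groups overlapped. The log2 fold change was 0.19 ± 0.13, with a 95% interval of -0.12 to 0.51 (limma with BH adjustment, adjusted p = 0.50, and 0.16 with the block). Without LPS library 2 it was 0.34 (limma with BH adjustment, adjusted p = 0.34), and under quantile normalization 0.016. The ratio of Ftl1 to Fth1 FPKM was 4.23, 3.37 and 3.98 with ultrasound and 3.58, 2.88 and 3.65 with LPS alone. In 3 of 3 pairs this ratio was higher in the ultrasound library, and the groups overlapped. Both chains together made up 0.914%, 1.06% and 0.926% of all FPKM with ultrasound, against 0.817%, 1.11% and 0.759% with LPS alone.

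The light chain values are uncertain because near-identical copies of the gene exist. Ftl1-ps1 had 49.6, 56.4 and 49.7 FPKM with ultrasound, against 40.7, 161 and 40.9 FPKM with LPS alone, so LPS library 2 lay far above the other 5 libraries. Ftl2-ps averaged 91.8 ± 9.19 FPKM with ultrasound and 78.7 ± 18.9 FPKM with LPS alone (SD, n = 3 each). Neither passed (limma with BH adjustment, adjusted p = 0.79 and 0.50). Added to Ftl1 they gave 2254, 2557 and 2257 FPKM with ultrasound, against 1886, 2619 and 1823 FPKM with LPS alone, which turns the direction for the libraries numbered 2. The other 12 ferritin-related genes listed, which are relatives of the heavy chain gene apart from Ftl1-ps2, averaged under 1 FPKM. In Ftl1 itself, 109 of 1340 exon bases are shared with the annotated microRNA gene Gm22133 on the same strand and 355 with Gm10252 on the opposite strand. Gm22133 was listed at 3077 to 3554 FPKM with ultrasound and 2592 to 3701 FPKM with LPS alone, above every Ftl1 value of the same group. Gm10252 had 13.5 to 16.8 FPKM with ultrasound and 6.99 to 18.1 FPKM with LPS alone. How reads were divided between these genes is not known, so the level, rank and chain ratio of Ftl1 are uncertain.

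Ncoa4 (ENSMUSG00000056234), the cargo receptor gene for ferritin breakdown, was low and even. It had 2.91, 2.59 and 3.16 FPKM with ultrasound, against 2.72, 2.87 and 3.09 FPKM with LPS alone. The groups overlapped, and the log2 fold change was -0.0035 ± 0.098, with a 95% interval of -0.23 to 0.23 (limma with BH adjustment, adjusted p = 0.99). It has 13 annotated transcripts of 268 to 4733 bases, and its FPKM depends on the one to which reads were assigned.

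Among the uptake genes, the transferrin receptor gene Tfrc (ENSMUSG00000022797), the transcript with 4 matches to the hairpin pattern in its 3′ UTR, had 30.1, 27.6 and 34.7 FPKM with ultrasound, against 28.5, 28.2 and 31.1 FPKM with LPS alone. The LPS range lay inside the ultrasound range. The log2 fold change was 0.064 ± 0.098, with a 95% interval of -0.17 to 0.29 (limma with BH adjustment, adjusted p = 0.77).

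Slc11a2 (ENSMUSG00000023030), the gene of the transporter that carries ferrous iron out of endosomes, had 47.9, 42.7 and 44.6 FPKM with ultrasound, against 41.9, 37.4 and 38.2 FPKM with LPS alone. Again no LPS library reached the ultrasound range, and within each group library 1 was the highest and library 2 the lowest. The means were 45.1 ± 2.65 FPKM with ultrasound and 39.2 ± 2.41 FPKM with LPS alone (SD, n = 3 each), a log2 fold change of 0.20 ± 0.078 with a 95% interval of 0.014 to 0.38. It did not pass (limma with BH adjustment, adjusted p = 0.30, and 0.082 with the block). Reads were not divided between its isoforms here.

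Its paralog Slc11a1 (ENSMUSG00000026177), the phagosomal metal transporter gene, had 106, 96.5 and 117 FPKM with ultrasound, against 92.5, 80.6 and 99.5 FPKM with LPS alone. Each ultrasound library lay above its same-numbered LPS library, by 0.20, 0.26 and 0.24 on the log2 scale, while ultrasound library 2 lay below LPS library 3. The log2 fold change was 0.23 ± 0.11, with a 95% interval of -0.019 to 0.48 (limma with BH adjustment, adjusted p = 0.36, and 0.072 with the block). Without LPS library 2 it was 0.15. The ratio of Slc11a1 to Slc11a2 FPKM was 2.37 ± 0.226 with ultrasound and 2.32 ± 0.246 with LPS alone (SD, n = 3 each), a difference smaller than the spread between libraries, although the ultrasound library was higher in 3 of 3 pairs.

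Slc40a1 (ENSMUSG00000025993), the gene of ferroportin, the only known cellular iron exporter in mammals, was near the floor of the table. It had 0.185, 0.419 and 0.158 FPKM with ultrasound, against 0.210, 0.421 and 0.168 FPKM with LPS alone. Library 2 was the highest in both groups, at almost the same value. The groups overlapped, and the gene was too low to be tested. Cd163, the hemoglobin scavenger receptor gene, was listed at 0 in all 6 libraries, and Spic, the factor of red pulp macrophages, had at most 0.0336 FPKM.

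**Figure D2:**
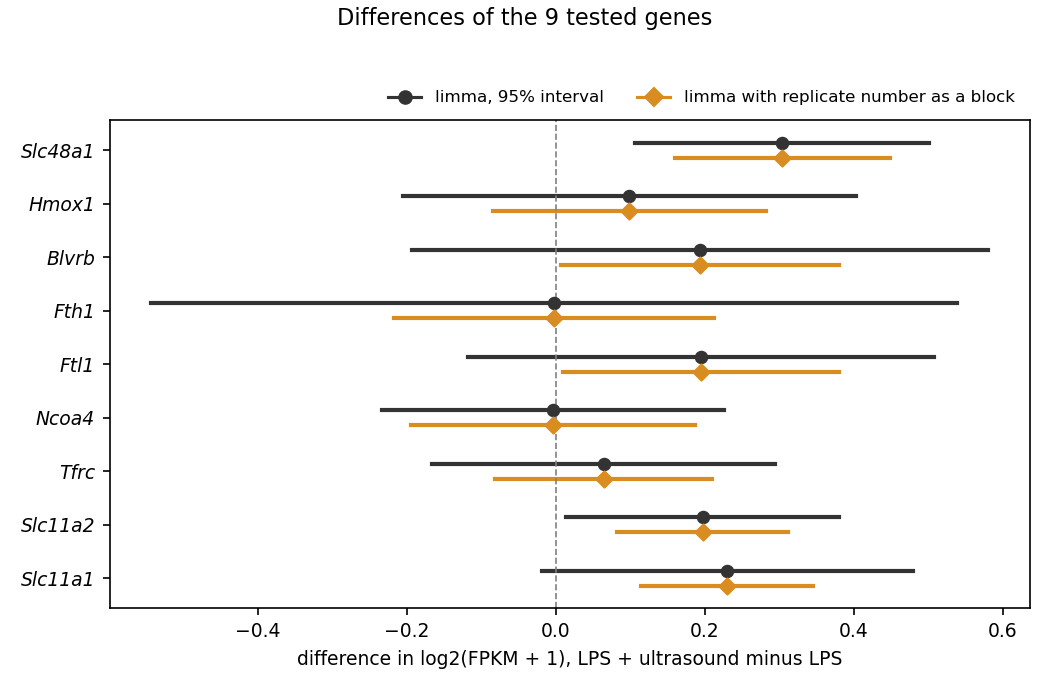
Difference in log2(FPKM + 1), LPS plus ultrasound minus LPS, for the 9 tested genes (x axis), with 95% intervals from limma without a block (circles) and with the replicate number as a block (diamonds). The intervals without the block lie above 0 for Slc48a1 and Slc11a2, and none of the 9 genes passed after adjustment.

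The highest library carried the same number in both groups for 9 of the 10 genes, all but Slc48a1, and the lowest library did so for 6. The same counts were not made over all tested genes, where same-numbered libraries also deviated together (r = 0.18, 0.44 and 0.41). The order is therefore not a trait shown for these genes alone. Within same-numbered pairs, Slc48a1, Blvrb, Ftl1, Slc11a1 and Slc11a2 were higher with ultrasound in 3 of 3 pairs. That is 5 of the 9 tested genes, against 24.3% of all tested genes, and 0 of the 9 were lower in 3 of 3 pairs, against 30.9%. The untested Slc40a1 was lower in 3 of 3 pairs, by differences of -0.030, -0.0014 and -0.013 on the log2 scale. The pair differences of Slc11a2 ran from 0.18 to 0.22 on the log2 scale and those of Fth1 from -0.20 to 0.19. With the block, the smallest adjusted p of the 10 genes was that of Slc48a1, at 0.068 (BH-adjusted limma p).

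**Figure D3:**
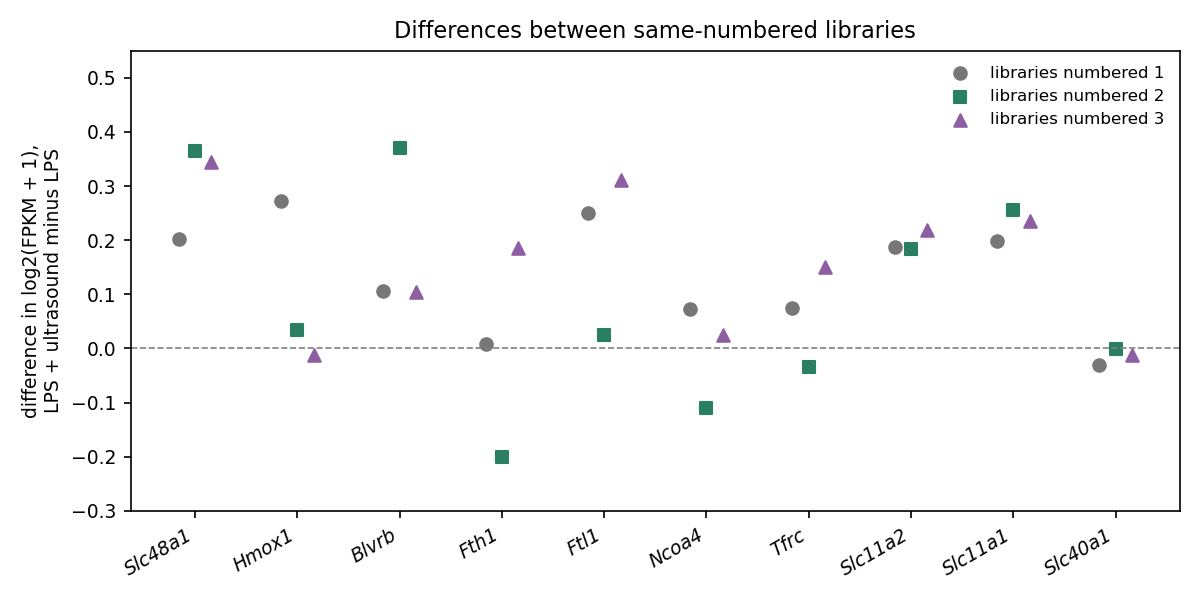
Difference in log2(FPKM + 1) between the LPS plus ultrasound and the LPS library of the same number (y axis) for each of the 10 genes, one symbol per pair. The 3 pairs of Slc11a2 lie between 0.18 and 0.22 and those of Fth1 between -0.20 and 0.19.

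The wider iron and heme pathway was read from 10 further lists with 109 genes, of which 73 were tested. Of these, 0 passed in either direction (BH-adjusted limma p), and 0 passed with the block. Before adjustment, limma p-values under 0.05 were found for 3 of the 73 with higher values, against 6.18% of all tested genes, and for 8 with lower values, against 9.16%. With the block these counts were 9 higher, against 12.6%, and 10 lower, against 17.1%. The groups did not overlap for 5 of the 73 that were higher, against 9.8% of all tested genes. They did not overlap for 10 that were lower, against 13.4%. The median log2 fold change was -0.019, beside -0.017 over all tested genes.

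Heme transport genes were mixed, with 4 of 9 tested genes above 0, against 46.1% of all tested genes. Pgrmc1, which encodes a heme-binding membrane protein, had 57.7, 60.2 and 59.6 FPKM with ultrasound, against 52.1, 49.6 and 53.7 FPKM with LPS alone. Abcb6, a porphyrin transporter gene, had 8.22, 9.11 and 7.75 FPKM with ultrasound, against 6.85, 7.35 and 6.92 FPKM with LPS alone. The groups were apart for both, with log2 fold changes of 0.19 ± 0.065 and 0.22 ± 0.087 (limma with BH adjustment, adjusted p = 0.26 and 0.31). Over this list the groups were apart for 2 of 9 tested genes that were higher, against 9.8% of all tested genes. They were apart for 1 that was lower, against 13.4%. Hebp1, a heme-binding protein gene, averaged 2.56 ± 0.377 FPKM with ultrasound and 3.39 ± 0.644 FPKM with LPS alone (limma with BH adjustment, adjusted p = 0.36).

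Of the regulators, Bach1, the heme-sensing repressor of Hmox1 and ferritin genes, had 20.1, 17.7 and 20.8 FPKM with ultrasound, against 17.8, 12.8 and 13.9 FPKM with LPS alone. Only ultrasound library 2 and LPS library 1 overlapped, and the log2 fold change was 0.38 ± 0.13 (limma with BH adjustment, adjusted p = 0.25). Mafk, the gene of a small MAF partner of BACH1 and NRF2, averaged 81.5 ± 19.8 FPKM with ultrasound and 69.8 ± 15.0 FPKM with LPS alone. Tfeb, which drives lysosomal genes, had 1.503, 1.36 and 1.74 FPKM with ultrasound, against 1.96, 2.22 and 2.94 FPKM with LPS alone (log2 fold change -0.40 ± 0.13). Hif1a averaged 25.4 ± 1.73 FPKM with ultrasound and 29.9 ± 3.10 FPKM with LPS alone (log2 fold change -0.23 ± 0.095). The groups were apart for Tfeb and Hif1a, and neither passed (limma with BH adjustment, adjusted p = 0.25 and 0.32). Of the 11 tested regulators, these 2 were apart and lower, against 13.4% of all tested genes, and 0 were apart and higher, against 9.8%.

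Of the iron-sensing genes, Aco1, whose product is iron regulatory protein 1 when it lacks its iron-sulfur cluster, had 7.62, 9.54 and 7.62 FPKM with ultrasound, against 6.20, 7.49 and 6.75 FPKM with LPS alone. Fbxl5, the gene of the ubiquitin ligase subunit that removes iron regulatory protein 2, had 5.18, 4.598 and 5.32 FPKM with ultrasound, against 5.95, 5.95 and 6.31 FPKM with LPS alone. The groups were apart for both, in opposite directions, with log2 fold changes of 0.24 ± 0.11 and -0.23 ± 0.086 (limma with BH adjustment, adjusted p = 0.37 and 0.29). Of the 5 tested genes of this list, that is 1 higher, against 9.8% of all tested genes, and 1 lower, against 13.4%. Ireb2, the gene of iron regulatory protein 2, averaged 18.5 ± 0.672 FPKM with ultrasound and 17.5 ± 1.27 FPKM with LPS alone. The iron chaperone gene Pcbp1 averaged 71.8 ± 13.7 FPKM with ultrasound and 71.5 ± 4.48 FPKM with LPS alone.

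Of the secreted iron-binding genes, Lcn2 and Cp differed widely between libraries. Lcn2, whose product sequesters bacterial siderophores, had 50.5, 148 and 60.2 FPKM with ultrasound, against 81.3, 235 and 74.2 FPKM with LPS alone. Cp, the ferroxidase gene ceruloplasmin, had 2.00, 3.45 and 2.42 FPKM with ultrasound, against 3.28, 8.62 and 4.22 FPKM with LPS alone. Library 2 was the highest in each group for both genes, and each ultrasound library lay below its LPS counterpart. The log2 fold changes were -0.55 ± 0.55 and -0.75 ± 0.30 (limma with BH adjustment, adjusted p = 0.65 and 0.31, and 0.066 and 0.067 with the block). The transferrin gene Trf averaged 1.78 ± 0.191 FPKM with ultrasound and 1.52 ± 0.245 FPKM with LPS alone, and the importer gene Slc39a14 8.72 ± 0.811 FPKM with ultrasound and 9.37 ± 1.04 FPKM with LPS alone. The hepcidin gene Hamp stayed under 1 FPKM in every library.

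Of 12 tested heme synthesis genes, 4 had a log2 fold change above 0, against 46.1% of all tested genes. The median was -0.036, beside -0.017 over all tested genes. Alas1, the rate-limiting first enzyme outside red cells, averaged 7.35 ± 1.09 FPKM with ultrasound and 8.44 ± 0.302 FPKM with LPS alone, and Ppox 8.60 ± 1.54 FPKM with ultrasound and 10.0 ± 0.229 FPKM with LPS alone. The glycine importer gene Slc25a38, which feeds the pathway, averaged 12.7 ± 1.70 FPKM with ultrasound and 9.91 ± 1.75 FPKM with LPS alone. The most abundant, Tmem14c, averaged 68.3 ± 4.65 FPKM with ultrasound and 69.1 ± 0.545 FPKM with LPS alone. None passed (limma with BH adjustment, adjusted p = 0.34 to 0.92 for the 4).

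Mitochondrial iron and iron-sulfur cluster genes had a log2 fold change above 0 in 8 of 20 tested, against 46.1% of all tested genes. At an unadjusted limma p below 0.05, 4 of the 20 were lower, against 9.16% of all tested genes. With the block it was again 4 of the 20, against 17.1%, and the groups were apart for 3 that were lower, against 13.4%. Slc25a37, the gene of the mitochondrial iron importer mitoferrin 1, had 10.2, 12.8 and 8.70 FPKM with ultrasound, against 13.8, 18.03 and 12.8 FPKM with LPS alone. The groups were narrowly apart, and the log2 fold change was -0.46 ± 0.17 (limma with BH adjustment, adjusted p = 0.27, and 0.058 with the block). Hscb, a cochaperone gene of cluster transfer, averaged 14.9 ± 0.584 FPKM with ultrasound and 18.5 ± 1.77 FPKM with LPS alone, and the ferredoxin gene Fdx1 5.28 ± 1.07 FPKM with ultrasound and 7.31 ± 0.964 FPKM with LPS alone (log2 fold changes -0.29 ± 0.088 and -0.41 ± 0.15, limma with BH adjustment, adjusted p = 0.23 and 0.27). The mitochondrial chaperone gene Hspa9, the most abundant of the list, averaged 128 ± 7.60 FPKM with ultrasound and 144 ± 10.7 FPKM with LPS alone (limma with BH adjustment, adjusted p = 0.38).

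Genes linked to ferroptosis, the iron-dependent death by lipid peroxidation, had a log2 fold change above 0 in 2 of 7 tested, against 46.1% of all tested genes. Aifm2, which encodes the coenzyme Q reductase FSP1, had 14.9, 15.0 and 14.3 FPKM with ultrasound, against 17.04, 15.4 and 18.3 FPKM with LPS alone. The groups were apart for this gene alone of the 7, and lower, against 13.4% of all tested genes. The cystine transporter genes Slc7a11 and Slc3a2 averaged 26.4 ± 3.59 and 124 ± 18.9 FPKM with ultrasound, against 23.6 ± 0.519 and 126 ± 13.2 FPKM with LPS alone. Acsl4, which loads membranes with oxidizable fatty acids, averaged 50.1 ± 2.85 FPKM with ultrasound and 53.9 ± 2.79 FPKM with LPS alone. None of the 4 passed (limma with BH adjustment, adjusted p = 0.35 to 0.92).

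**Figure D4:**
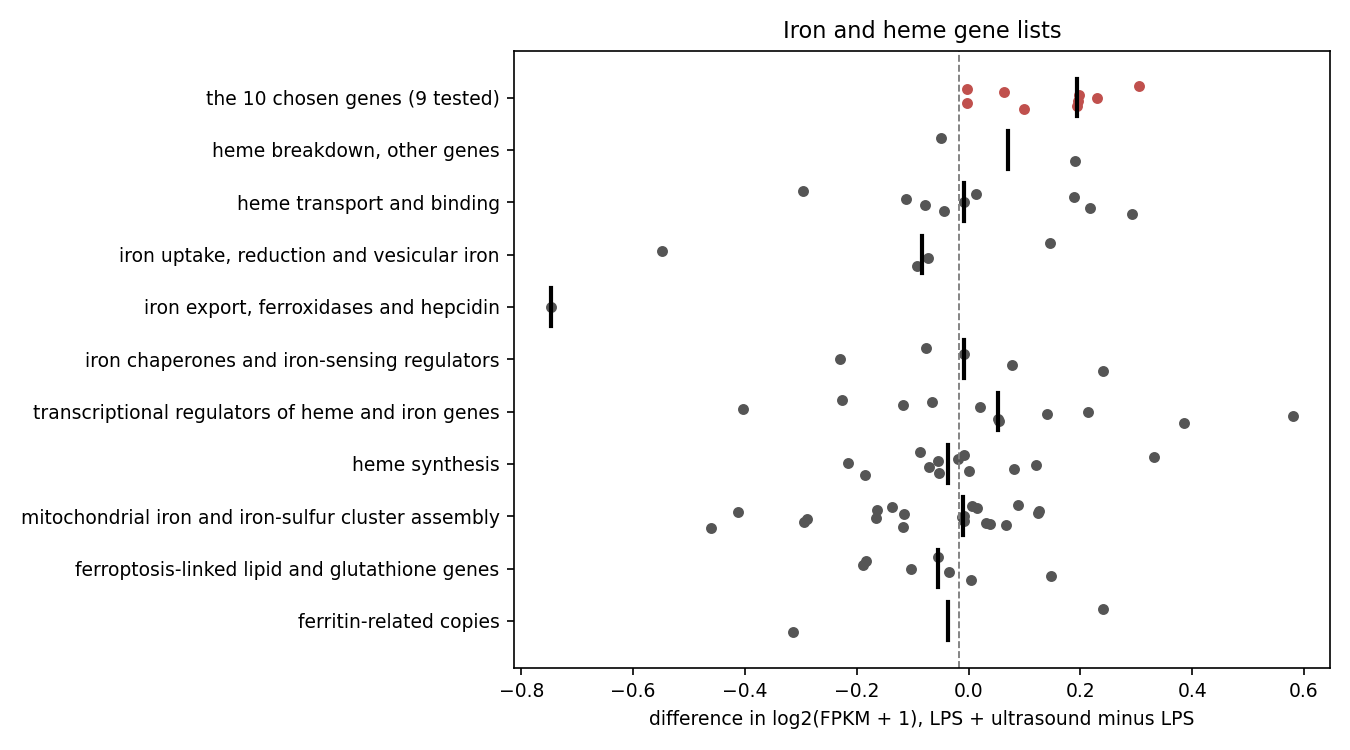
Difference in log2(FPKM + 1), LPS plus ultrasound minus LPS (x axis), of every tested gene in each iron and heme list, one point per gene, with the list's median as a bar and the median of all tested genes, -0.017, as a dashed line. The points of the 9 genes run from -0.0035 to 0.30 with a median of 0.19, and the 73 further genes have a median of -0.019.

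Promoter sequence was used for 6 of the 10 genes, in 11 windows of RefSeq starts (GRCm38.p6), and Hmox1, Slc48a1, Slc11a2 and Slc40a1 were not analysed here. The core of the antioxidant response element, TGACNNNGC on either strand, was in 1 of the 11 windows, of Ncoa4, and in 12.4% of all 32851 windows. The E-box CACGTG, a core bound by TFEB and related factors, was in 0 of the 11 and in 7.15% of all. Sequence outside these windows was not searched, so no match does not show that a gene lacks either element.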

How the data were processed

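The authors deposited FPKM for 55335 mouse Ensembl genes in 6 libraries, with no counts. Per the submitters' processing notes the build was the rat build mRatBN7.2, which goes against the mouse identifiers. No aligner, quantifier or mouse build is named in the sources used here. Coordinates come from GENCODE M21 (GRCm38) and belong to the printed sequences only. Columns were matched to libraries by the initial and number shared with the titles, and 55154 identifiers had a symbol. In genes with 1 transcript, 26.1% to 27.7% of low values lay within 0.05 of a whole fragment at the best depth tried, so no counts were recovered, depth is unknown and no counting interval is given.

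The test covered the 11270 genes averaging 1 FPKM or more. On log2(FPKM + 1) values, limma 3.58.1 (R 4.3.3) was fitted with trend and robust moderation. Its two-sided p-values were adjusted by Benjamini and Hochberg over these genes and held to 0.05. The fit was checked on simulated data with independent noise and planted changes larger than any ratio of means of the tested iron and heme genes. That check does not cover changes as small as theirs, or same-numbered libraries that deviate together. Same-numbered libraries deviated together (r = 0.18, 0.44 and 0.41 across genes), against r of -0.40 to 0.057 between libraries of different number. The numbers were therefore taken to pair them, and the block is an alternative. This pairing was inferred from the same values that were tested, and the block p-values and pair counts depend on it. Deviations from a group mean cancel out within the group, so positive r between same-numbered libraries lowers the other r. The contrast between them is therefore partly arithmetic. At most 0.0444% of tested genes had equal values in any of 15 library pairs. All 10 genes are named. Of each further list, the 3 smallest p, the highest mean and any gene past the threshold are named. Cd163, Spic and Hamp were named after their values were seen. The genes and lists were chosen with earlier results of these data known. Alternatives were the pseudocount, filter, scaling, moderation, array weights, the block and leaving out libraries.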

Additional observations from a re-analysis of the deposited data

How the results depend on the processing

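Of the 10 genes and the further pathway genes, 0 were called under the 17 alternatives, counting in each those that its filter kept. Ncoa4 had 16 alternatives, since the filter on 5 FPKM removed it. The count over all tested genes, 2 in the main comparison, was 1 with a filter on a mean of 5 FPKM, 5 with libraries scaled to the same sum, 13 with the replicate block, 223 with array weights, 6 without both libraries numbered 2, and 2 to 8 when 1 library was left out (8 without LPS library 2, 4 without LPS library 1 or 3). Hmox1, Blvrb, Ftl1, Slc11a1, Slc11a2 and Slc48a1 kept their direction under all 17. Slc48a1 ran from 0.25 to 0.35 (log2) and Slc11a2 from 0.15 to 0.25. The genes near 0 changed sign, and the cause was not tested. Fth1 moved from -0.0020 to 0.017 with median-ratio scaling, 0.097 without both libraries numbered 2 and -0.16 to 0.25 leaving out 1 library. Ncoa4 moved from -0.0035 to 0.011 with median-ratio scaling, 0.046 with quantile normalization, 0.021 with array weights, 0.050 without both libraries numbered 2 and -0.054 to 0.053 leaving out 1 library. Tfrc ran from -0.022 to 0.14 leaving out 1 library. The depth is unknown, no limit of detection was computed, and an interval that includes 0 does not show that levels were the same.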
